A study of Mus musculus with 12 samples.

Results

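Distal elements called only in pachynema are places at least 1000 bp from every annotated transcription start site (TSS) where nascent RNA of pachytene spermatocytes carried the signature of transcription initiation and where no such call was made in the substages before and after. They were selected on the calls themselves. Peaks of the 3 deposited lists that overlapped or touched were joined into 65172 elements, of which 63116 lay on the 19 autosomes and 37706 of these were distal. Of the distal elements, 6423 (17.0%, Wilson 95% interval 16.7 to 17.4%) held a pachynema (P) peak and no peak of leptonema/zygonema (LZ) or diplonema (D). The number depends on the calls admitted: it was 2508 (12.6%) when a score of at least 0.5 was required in each list, and 1629 (7.96%) with lists of equal length, of which 834 were the same elements. That 17.0% is what the selection yields and is read here as a description only. For comparison, 2925 of 25410 proximal autosomal elements (11.5%) were called in pachynema alone.

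The study measured transcription through prophase I by leChRO-seq, a run-on assay on isolated chromatin in which engaged RNA polymerases add a biotin-labelled nucleotide to the RNA they are making. Testes came from adult wild-type mice (labelled WT), on a C57Bl/6J or DBA/2J background by the study's methods, and substages were enriched by STAPUT, which separates cells by size and density. There were 4 libraries for each of LZ, P and D, no treatment, and 1 peak list per substage, made after the 4 libraries were pooled. The fractions are enriched and not pure, and no list has a replicate, so every value below describes a list and none is tested between substages. By the study's account, most contaminating cells of the fractions were elongated spermatids. In such bulk material, fewer cells of a type and less RNA per cell cannot be told apart.

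In meiotic prophase I, chromosomes pair and recombine, and pachynema is the long substage in which homologs are fully synapsed. Pachytene spermatocytes switch on a large germline program, much of it under the transcription factor A-MYB (encoded by Mybl1), which acts on piRNA precursor loci and on genes of meiosis and sperm formation. Active enhancers and promoters both fire polymerase in opposite directions, and dREG is a machine-learning tool that recognises this divergent pattern in run-on data without using annotation. The stronger the pattern, the higher the score of a call. A distal call is therefore a candidate enhancer, or the start of a transcript that the annotation lacks.

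The labels were checked on marker genes by whether a peak lay under 1000 bp from one of their TSSs. All 8 pachytene and spermatocyte markers (Sycp3, Sycp1, Mybl1, Piwil1, Ccna1, Ldhc, Pgk2 and Hspa2) had a promoter peak in each of the 3 lists, and so these promoters do not tell the lists apart. The 6 markers of earlier cells (Stra8, Kit, Dazl, Meioc, Prdm9 and Spo11) had promoter peaks in LZ and in P, and 5 of them in D, Stra8 being the exception. Prm1, Prm2, Tnp1 and Acrv1, which are expressed as protein or RNA in spermatids, were called in all 3 lists, Prm1 and Prm2 by the same peak, while Tnp2 was called in none. Somatic markers are given with their gene list at the end.

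Sequence is shown for 6 members that the results below turn on, as the plus strand for 70 bp on each side of the dREG centre in the RefSeq GRCm38 assembly (mm10). The first 3 have the highest pachynema scores, and the others are the highest-scoring members with a match to the MYB, RFX and CRE motifs. Capitals mark matches on either strand to MYB (GGCNGTT), RFX (GTTGCCA), CRE (TGACGTCA), NFY (CCAAT), ETS (CCGGAAG), SP/KLF (GGGCGG) and NRF1 (GCATGCG).
chr2:171947721-171947861: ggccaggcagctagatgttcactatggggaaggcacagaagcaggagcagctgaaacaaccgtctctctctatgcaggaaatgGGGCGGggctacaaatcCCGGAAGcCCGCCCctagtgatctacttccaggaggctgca
chr10:88298731-88298871: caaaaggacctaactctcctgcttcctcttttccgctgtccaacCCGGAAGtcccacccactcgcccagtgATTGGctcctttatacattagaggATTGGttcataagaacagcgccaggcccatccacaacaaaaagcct
chr13:57950451-57950591: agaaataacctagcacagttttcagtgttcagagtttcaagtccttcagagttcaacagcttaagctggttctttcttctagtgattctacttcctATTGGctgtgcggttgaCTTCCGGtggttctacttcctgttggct
chr13:107568901-107569041: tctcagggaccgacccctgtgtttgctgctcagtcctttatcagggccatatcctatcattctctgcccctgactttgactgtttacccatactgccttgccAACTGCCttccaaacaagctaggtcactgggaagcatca
chr11:101146461-101146601: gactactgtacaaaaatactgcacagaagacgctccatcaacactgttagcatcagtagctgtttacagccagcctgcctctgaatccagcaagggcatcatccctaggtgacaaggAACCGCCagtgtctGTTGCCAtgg
chr2:74079331-74079471: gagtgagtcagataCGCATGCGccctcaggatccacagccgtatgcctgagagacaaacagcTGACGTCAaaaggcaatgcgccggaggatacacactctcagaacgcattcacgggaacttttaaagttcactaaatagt

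All 3 top-scoring windows hold an ETS match within 70 bp of the centre, read on the plus strand at the first and second and on the minus strand at the third. This was noticed after the sequences were read. The first window also has a pair of SP/KLF matches around its ETS match, and both other windows of the top 3 have NFY matches. In the chromosome 11 window a MYB match begins 47 bp after the centre and an RFX match 61 bp after it. In the second window from chromosome 2 the CRE begins 8 bp before the centre, and an overlapping pair of NRF1 matches lies 56 and 55 bp before it.

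The highest-scoring member was at chr2:171947501-171948050, with a dREG score of 1.122, between genes and 95416 bp from the nearest protein-coding TSS, that of Cbln4. The nearest LZ peak was 12550 bp away and the nearest D peak 13780 bp away, while another element called only in P began 20 bp from its edge. The second, chr10:88298351-88299070 (score 1.055), lay 57926 bp from the Dram1 TSS and 36970 bp from the closest LZ peak. Of its sequence within 100 bp of the centre, 80.6% is soft-masked, meaning that the assembly marks it as repeat. The third, chr13:57950141-57950890 (score 1.003), lay 41809 bp from the TSS of Spock1, a gene for an extracellular matrix proteoglycan. Its nearest LZ peak was 11230 bp away, the smallest distance to another substage's call among the 3.

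The next members in rank show how varied the strongest calls are. The fourth (chr19:17433601-17433980, score 0.989) was in an intron of Pcsk5, which encodes a proprotein convertase, but an LZ peak lay only 40 bp from its edge. The fifth (chr13:107568561-107569240, score 0.986) is the MYB-bearing member printed above, 3230 bp from the TSS of Gm32004, a noncoding transcript. The sixth (score 0.969) was in an intron of the autophagy gene Atg10 and had both a MYB and an NRF1 match. The seventh (score 0.963) was in an intron of Rora, which encodes a nuclear receptor, and the tenth (score 0.952) in an intron of Mtmr6, a lipid phosphatase gene. Among the 10 highest-scoring members 6 were intergenic and 4 intronic, 4 had another element within 20 bp, and 1 had an LZ or D peak within 500 bp. Matches to MYB, ETS, NFY and the TATA box were each present in 3 of the 10. Over all members these are found in 11.6%, 3.41%, 26.0% and 10.9%.

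Most members scored low. Their dREG scores ran from 0.244 to 1.122 with a median of 0.365 and quartiles of 0.320 and 0.442. A score of at least 0.5 was reached by 992 members (15.4%), a score of at least 0.7 by 169, and a score of at least 1 by 3. The deposited p-value was 0 for 23.3% of members, had a median of 0.00407, and was over 0.01 for 37.2%. Distal elements that also had a call elsewhere had higher pachynema scores, with medians of 0.517 for those called in P and D, 0.489 for LZ and P, and 0.926 for all 3 lists. The selection is on calls, so this contrast belongs to how the members were chosen. The pachynema score of an element was that of its highest P peak, and elements joined from several lists could hold several P peaks.

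The same point can be put by score. Among distal elements with a P peak, members made up 63.2% of those scoring under 0.3, 50.7% from 0.3 to 0.4, 33.6% from 0.4 to 0.5, 16.5% from 0.5 to 0.7 and 2.11% at 0.7 or more. A strong distal peak of pachynema was thus seldom a pachynema-only one. Each member consisted of exactly 1 P peak, and their median width was 360 bp. This was near the 390 bp of LZ-only and the 360 bp of D-only distal elements, while elements that join peaks of several lists were wider, at 610 bp for P and D, 590 bp for LZ and P, and 870 bp for all 3 lists.

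**Figure D1:**
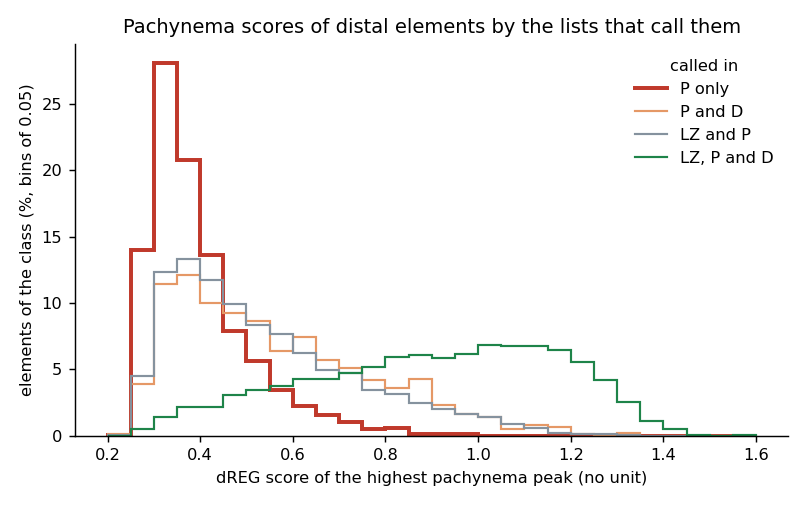
Distribution of the pachynema dREG score (x axis, no unit) in distal elements grouped by the lists that call them, as percent of each class per bin of 0.05 (y axis). The members, called in P only, pile up between 0.3 and 0.4, whereas elements called in all 3 lists spread to scores above 1.

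Not every member was far from a call of another substage. The gap from a member's edge to the nearest LZ peak had a median of 9650 bp, with quartiles of 1060 and 28985 bp, and the gap to the nearest D peak a median of 17880 bp. An LZ or D peak lay within 500 bp of 1626 members (25.3%, 95% interval 24.3 to 26.4%) and within 100 bp of 751 (11.7%). The first share was 13.6% with a score of at least 0.5 in each list, 16.1% with lists of equal length and 10.9% when peaks up to 100 bp apart were merged. For 80 members it was only 10 bp away, the smallest gap present. The D list is the shortest, with 38603 peaks against 71107 in LZ and 68352 in P, and the lists hold no read depth.

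Members that close to another call sit at the edge of the selection. The 3 with the smallest gap and the highest score had a D peak 10 bp away: one in an intron of Mas1, a G protein-coupled receptor gene (score 0.782), one in an intron of Tcerg1l (score 0.688) and one in an intron of Nfatc2, a transcription factor gene (score 0.671). A merging distance of 10 bp would have joined each of these to the D call. At the TSS limit, the 3 nearest members lay 1000, 1003 and 1006 bp from TSSs of Ptprd, Cenpo and Washc3, with scores of 0.381, 0.405 and 0.289. The 3 closest elements on the other side, 999, 999 and 997 bp from TSSs of the noncoding genes Gm9951 and Gm48075 and the pseudogene Gm8973, scored 0.334, 0.329 and 0.791. There were 99 members in the first 100 bp beyond the limit and 102 pachynema-only elements in the 100 bp before it.

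Another element of any kind lay within 20 bp of 1321 members (20.6%) and within 1000 bp of 2655 (41.3%), leaving 3768 isolated. Within 20 bp the share was 22.4% for LZ only, 21.9% for P and D, 20.6% for all 3 lists and 18.5% for LZ and P, and within 1000 bp it was 42.1%, 39.6%, 42.2% and 35.9% in the same order. For D-only elements the shares were 18.4% and 53.3%. For those with a neighbour within 20 bp, it was called only in P in 43.8% of cases and in all 3 lists in 25.5%. Over all members, the nearest element at any distance was called only in P in 22.7% of cases and in all 3 lists in 30.7%. Isolated members had a median score of 0.369 and members within 1000 bp of an element 0.360.

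By position, 51.1% of members were intergenic (95% interval 49.9 to 52.3%), 41.9% intronic and 6.96% exonic. The corresponding intergenic shares were 53.0% for distal elements called in P and D, 49.7% for LZ only, 52.8% for LZ and P, and 55.2% for all 3 lists. The median distance to a TSS was 12440 bp, with quartiles of 4588 and 29172 bp, and 263 members (4.10%) were 100000 bp or more away. This median was 28297 bp with TSSs of protein-coding genes alone and 19604 bp with a TSS limit of 5000 bp. The nearest TSS belonged to a protein-coding gene for 48.0% of members, to a processed pseudogene for 15.9% and to a lincRNA for 14.9%. Members were found on every autosome, from 2.15 per Mb on chromosome 7 to 3.39 per Mb on chromosome 10, and made up from 14.1% (chromosome 16) to 19.7% (chromosome 10) of the distal elements there.

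The 2694 intronic members fell in 2154 genes, of which 1671 held a single one, and 84.1% of them were inside a protein-coding gene. The genes with most members were long. Gm20388, an annotated model of 4434.9 kb that spans many other genes, held 17, beside 27 distal elements called only in LZ. Sox5, a transcription factor gene of 953.6 kb, held 7 with scores from 0.296 to 0.914, beside 2 elements called only in LZ, 3 called in all 3 lists and 2 called in P and D. Prkg1, the gene of a cGMP-dependent protein kinase (1200.5 kb), also held 7, with scores from 0.270 to 0.625, beside 2 LZ-only elements. Maml3, a Notch coactivator gene, Tshz2, a zinc finger gene, Cdh13, a cadherin gene, and Pde4d, a cAMP phosphodiesterase gene, held 6 each, beside 3, 1, 11 and 10 LZ-only elements. There were 12 genes with 5 members, of which Svop is named because ties were ordered by members per length. It encodes a synaptic vesicle protein and held 5 members in 64.66 kb, or 7.73 per 100 kb, beside 3 LZ-only elements. Next among the 12 came Tspan5, at 3.02 per 100 kb.

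Members were also grouped by their distance to one another, which was not done for the other classes. When members 12.5 kb or less apart were joined, 5037 stood alone, 552 groups held a pair and 88 held 3 or more, with 5 the highest number. In all, 1386 members (21.6%, 95% interval 20.6 to 22.6%) had another within that distance. The share depends on the settings, at 14.1% with a score of at least 0.5 in each list, 8.29% with lists of equal length, and 11.7% or 8.59% when peaks up to 100 or 500 bp apart were merged. The 3 groups of 5 differed in layout. The one at chr9:99799081-99807810 was 67845 bp from the nearest protein-coding TSS, that of Sox14, and consisted of a trio that began with a peak of score 0.749 and a pair that began with a peak of score 0.647, each with members 20 bp apart. An element called in all 3 lists, with a P score of 0.865, lay 20 bp beyond the last member. The one at chr3:51386421-51400740 spanned Mgarp, the gene of a mitochondrial protein, with scores from 0.307 to 0.505. The Mgarp promoter was called in LZ (score 0.409) and in neither P nor D. The one at chr17:27269871-27291790 lay between genes, 65402 bp from the Lemd2 TSS, with scores from 0.291 to 0.430.

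Of the next 5 groups, each with 4 members, the one with the highest scores was at chr15:25567151-25588420, in the region of the lincRNA Gm36642 and 34105 bp from the Myo10 TSS, where scores reached 0.887. The others were nearest to Gm9747, Fbrsl1, Prickle1 and Rragc, at distances from 10538 to 311640 bp. Some members are 20 bp apart in the groups nearest to Sox14, Lemd2 and Rragc, so the number of peaks in a group need not be a number of separate enhancers.

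**Figure D2:**
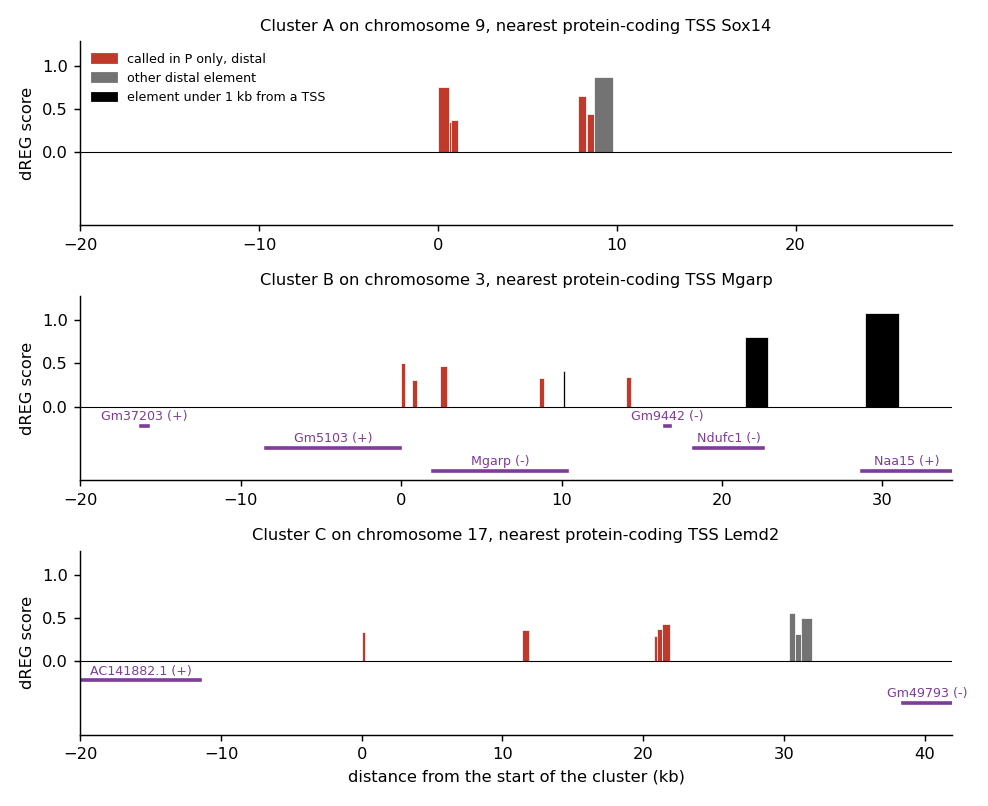
Maps of the 3 groups with 5 members, in kb from the start of each group (x axis), with the dREG score as height (y axis; the P score where P called the element, otherwise that of the calling list) and annotated genes with their strand below. Red bars are members, grey bars other distal elements and black bars elements under 1 kb from a TSS; the group on chromosome 9 has 5 members in 2 tight sets, with a grey element called in all 3 lists (score 0.865) beside the second.

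Sequence was not used in the selection and could be compared with other classes, but elements are not replicates and no test was made. Within 100 bp of the dREG centre, the median GC content of members was 48.8% (95% interval 48.3 to 48.8%). It was 49.8% for elements called in P and D, 46.8% for LZ only, 47.3% for LZ and P, and 48.3% for all 3 lists, and 44.3% in windows 2000 bp from the members. The ratio of observed to expected CpG dinucleotides had a median of 0.263 in members and 0.291 in P and D, but 0.177 in LZ only, 0.184 in LZ and P and 0.215 in all 3 lists. The intervals of the members and of the LZ-only elements did not overlap for either measure. Repeats took less of the members than of LZ-only elements. Windows soft-masked over more than 50 of every 100 bases were 13.2% of members (12.4 to 14.1%) and 21.4% (20.7 to 22.2%) of LZ only. The share was 13.1% for P and D, 14.7% (12.8 to 16.9%) for D only, 15.9% for all 3 lists and 18.2% for LZ and P. In CpG ratio and repeat content the members' values lay closer to those of P and D elements than to those of LZ-only elements.

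The MYB motif was searched as GGCNGTT on both strands. It was present in 746 members, 11.6% (95% interval 10.9 to 12.4%), as against 5.65% of windows 2000 bp away. In windows of only 50 bp to each side it was present in 6.18% of members. Most of the 746 members had a single match, 61 had a pair and 10 had 3 or more. The share was 22.5% (20.5 to 24.6%) in elements called in P and D, 12.3% in those called in all 3 lists, 8.19% in LZ and P and 6.94% (6.49 to 7.42%) in LZ only, 10.3% (8.68 to 12.2%) in D only, and 9.86% over all distal elements. In proximal elements it was 9.59%. The share in members was thus above those of LZ-only and LZ and P elements by more than the intervals. It was within the interval of D-only elements and below that of P and D elements. With all scores pooled it was near that of elements called in all 3 lists. Shares within ranges of score, where members and that class differ, are given below.

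Since GC content differed between the classes, the shares are also given within ranges of it. At 45 to 50% GC, a MYB match was present in 11.9% of members (10.5 to 13.5%), 27.1% of P and D elements and 8.52% of LZ-only elements (7.59 to 9.55%). At 50 to 55% GC the values were 12.8%, 22.2% and 8.30%. Under 40% GC they were 6.77%, 17.5% and 3.64%. The order of these 3 classes was the same in each of these ranges. Elements called in all 3 lists changed place with members by GC range. At 40 to 45% GC they had a match in 7.98% (6.72 to 9.45%), as against 11.3% of members (9.64 to 13.2%). At 50 to 55% GC the shares were 16.6% (14.9 to 18.4%) and 12.8% (11.3 to 14.6%).

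Members with a higher score carried the motif more often. The share went from 8.07% of 905 members under 0.3 (6.46 to 10.0%) to 10.3%, 12.4% and then 17.9% of 823 members from 0.5 to 0.7 (15.4 to 20.6%), and it was 18.3% of the 169 at 0.7 or more (13.2 to 24.9%). In elements called in LZ and P the shares lay between 7.26% and 8.88%. In P and D elements it went from 7.81% of 64 to 31.5% of 394, and in elements called in all 3 lists from 5.71% of 35 to 12.7% of 5475. At scores from 0.5 to 0.7 the share of the last class was 11.9%, below that of members. Matches in members were most frequent near the dREG centre, at 1.46% of members in the 20 bp bin just before it. The bin 270 bp before it held 0.841%, and the outermost bins, at 290 bp, were lower still, at 0.638% and 0.623%. The highest bin was 1.83% for elements called in all 3 lists and 3.93% for P and D elements. Members with a MYB match had an LZ or D peak within 500 bp in 18.4% of cases (15.8 to 21.3%), as against 26.2% (25.1 to 27.4%) of members without one.

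**Figure D3:**
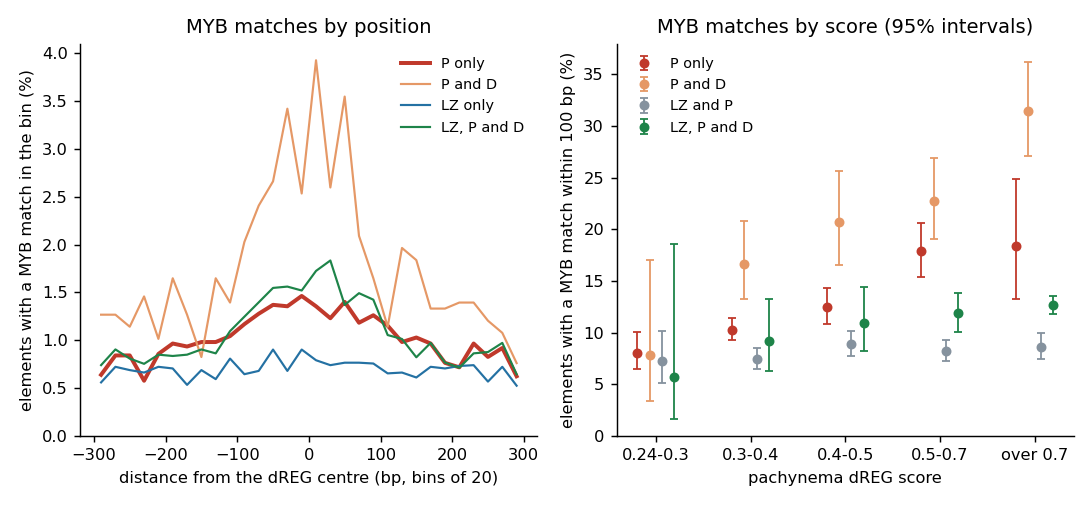
Left, percent of elements with a MYB match (y axis) in each 20 bp bin by distance from the dREG centre (x axis, bp) for 4 classes of distal element. Right, percent of elements with a MYB match within 100 bp of the centre (y axis) by range of the pachynema score (x axis), with Wilson 95% intervals; in members it goes from 8.07% to 18.3%, and in elements called in LZ and P it stays between 7.26% and 8.88%.

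Motifs of 2 other regulators of late spermatogenesis were less frequent in members than over all distal elements. RFX factors, of which RFX2 is needed for round spermatids to mature, bind sites that contain GTTGCCA. A match was present in 3.44% of members (3.02 to 3.92%) and 1.94% of their flanks, 3.17% of P and D elements, 3.70% of D-only elements, 4.90% of LZ-only elements, 7.02% of LZ and P, 9.43% of all 3 lists, 5.94% of all distal and 4.29% of proximal elements. CREM, an activator of spermatid genes, binds the cAMP response element TGACGTCA, which was found in 25 members (0.389%, 0.264 to 0.574%), in 0.176% of D-only, 0.824% of P and D and 0.713% of LZ-only elements, in 1.93% of those called in all 3 lists, in 0.936% of all distal and in 2.04% of proximal elements. With a score of at least 0.5 required in each list the share of members was 0.957% and with lists of equal length 0.859%, and the share over all distal elements was not computed under those settings. Its shorter form TGACGT, which every full match also contains, was in 3.29% of members and 4.22% of all distal elements. No match says only that these letters are not in the window.

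Unlike the CRE, the motifs ETS, NRF1, SP/KLF and the E-box, which also contain CpG, were more frequent in members than in LZ-only elements. ETS (CCGGAAG) was in 3.41% of members (2.99 to 3.88%), 0.778% of their flanks and 1.38% of LZ-only elements, as against 3.68% of elements called in all 3 lists, 2.44% of all distal and 7.82% of proximal elements. NRF1 (GCATGCG) was in 2.49% of members, 0.885% of LZ-only, 1.58% of all distal and 3.18% of proximal elements. SP/KLF (GGGCGG) was in 8.13%, 5.21%, 7.26% and 34.5% of these, and the E-box CACGTG in 4.56%, 2.72%, 3.69% and 5.95%. In P and D elements, ETS was in 4.31%, NRF1 in 3.68%, SP/KLF in 10.65% and the E-box in 5.64%. The SP/KLF contrast between members and LZ-only elements depended on GC content. It was 4.6% (3.7 to 5.7%) as against 2.9% (2.4 to 3.6%) at 45 to 50% GC. The intervals overlapped at 50 to 55% GC, 8.90% (7.58 to 10.4%) as against 7.21% (6.24 to 8.32%). At 60% GC or more the shares were 39.2% and 38.6%. The ETS, NRF1 and E-box shares were not compared within ranges of GC content. Motif shares also varied with score: the ETS share was 2.21% of members under 0.3 and 14.2% (9.73 to 20.3%) of the 169 at 0.7 or more, and the NRF1 share 1.44% and 8.88%. NFY (CCAAT) was in 26.0% of members, 26.8% of their flanks and 26.6% of all distal elements. SOX (AACAAT) was in 9.78% of members and 12.2% of their flanks, but in 14.5% of LZ-only elements, 14.9% of LZ and P and 13.8% of all 3 lists. It was in 7.10% of P and D elements and 11.2% (9.49 to 13.2%) of D-only elements. Of the other letters searched, AP-1 (TGANTCA) was in 7.32% of members and 7.72% of all distal elements, CTCF (CCACNAGG) in 3.38% and 2.90%, the nuclear receptor motif AGGTCA in 15.5% and 16.5%, the GATA factor motif AGATAA in 10.9% and 9.98%, and the TATA box letters TATAAA in 10.9% and 10.9%. The dinucleotide repeat CACACACA was in 4.81% of members and 4.46% of all distal elements, and the repeat GAGAGAGA in 3.94% of members and 4.69% of all distal elements.

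**Figure D4:**
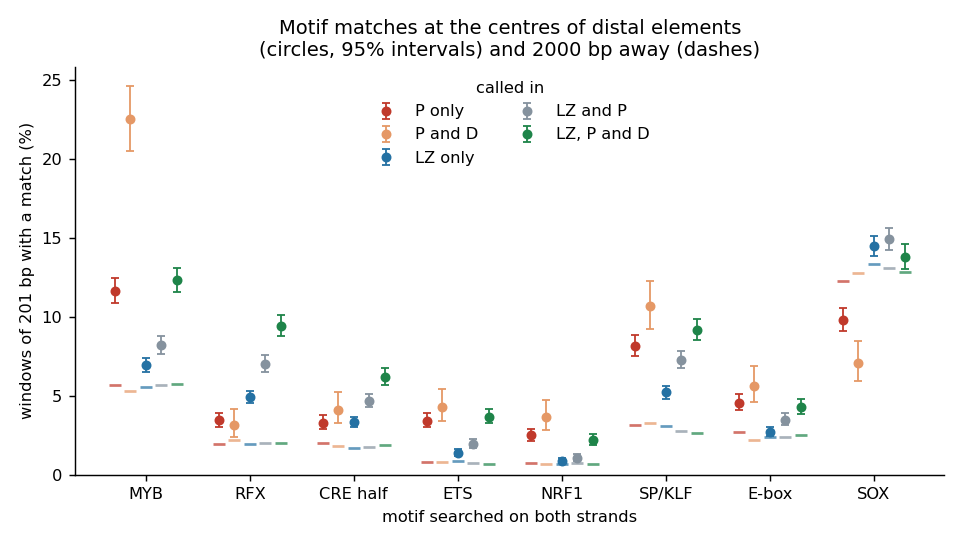
Percent of windows with a match (y axis) for 8 motifs (x axis) in 5 classes of distal element; circles are windows at the dREG centre with Wilson 95% intervals, dashes the windows 2000 bp to either side. Members (P only) have MYB in 11.6% of windows, below P and D at 22.5% and above LZ only at 6.94%, and RFX in 3.44%, below the classes called in LZ.

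Genes near the members were then described by their promoters, which the selection did not use. For 4114 members (64.1%) the nearest protein-coding TSS was under 50 kb away, which gave 3178 genes. A P peak lay at the promoter of 74.5% of them (95% interval 72.9 to 76.0%), an LZ peak at 72.2% and a D peak at 64.2%, as against 61.2%, 60.7% and 52.3% of all 20807 autosomal protein-coding genes. Genes nearest to distal elements called only in LZ had much the same shares, 74.2%, 72.9% and 64.0%. A promoter called in P and not in LZ was found at 161 genes near members (5.07%, 4.36 to 5.88%) and at 4.15% (3.63 to 4.74%) of genes near LZ-only elements. It was found at 5.14% of genes near elements called in all 3 lists, 4.61% near LZ and P elements and 3.58% (3.34 to 3.84%) of all genes. Where both lists called the promoter, its percentile rank by score was higher in P than in LZ by a median of 1.29 percentage points near members (1.00 to 1.68) and 1.30 near LZ-only elements, and over all genes by 1.09. On each of these measures the intervals for genes near members and genes near LZ-only elements overlapped. Genes can be in both sets.

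Lists of genes for 5 roles were set beside the members, counting a gene when it was the nearest protein-coding gene of a member within 50 kb. This held for 15.3% of all autosomal protein-coding genes. Of synapsis and recombination genes it held for 8 of 43 (18.6%, 9.74 to 32.6%). Sycp1, which encodes a protein of the synaptonemal complex, had a member of score 0.555 at 38798 bp from its TSS. Tex15, a gene required for double-strand break repair, had one of score 0.398 at 29348 bp with a MYB match, and Stag3, the gene of a meiotic cohesin subunit, one of score 0.326 at 3570 bp. Rad21l, another meiotic cohesin gene, had a MYB-bearing member of score 0.396 at 1208 bp, but an LZ peak lay 40 bp from it. Mei1, needed for double-strand breaks, had a MYB-bearing member of score 0.379 inside an intron, 2004 bp from a TSS. Neither Rad21l nor Mei1 had a promoter peak in any list.

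Of the piRNA pathway genes, 4 of 24 (16.7%) had a member. Piwil1, the gene of the PIWI protein MIWI, had a pair with scores of 0.571 and 0.423, at 4747 and 7074 bp from a protein-coding TSS. Its promoter score was 0.796 in LZ, 1.116 in P and 1.264 in D, a percentile rank of 68.0, 89.5 and 99.4 within those lists. Tdrd1 and Tdrd3, which encode Tudor domain proteins, had members of scores up to 0.366 and 0.370, and those 2 members had MYB matches. A D peak lay 60 bp from the one near Tdrd3. The promoters of these 3 genes were called in every list.

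Of germ-cell transcription regulators, 6 of 32 (18.8%) had a member. Rfx4, a member of the RFX family, had 4, with scores of 0.505, 0.357, 0.357 and 0.350 and distances from 3922 to 34786 bp. Hsf2, a heat shock factor gene, had a pair of scores 0.423 and 0.377 over 41 kb from its TSS. Sohlh2, a regulator of spermatogonia, had one of score 0.439 at 11013 bp, Nr6a1, an orphan nuclear receptor gene, one of score 0.368, and Tcfl5, a pachytene bHLH factor gene, one of score 0.341 with an LZ peak 60 bp away. Rfx2, named to complete this list, had one of score 0.293 with a MYB match and an LZ peak 540 bp away. Mybl1 itself had none. Of genes of spermatids and sperm structure, 10 of 62 (16.1%) had a member, among them the tektin gene Tekt5 (score 0.465, with an LZ peak 10 bp away), Izumo2 (0.415), the outer dense fibre gene Odf1 (0.382), Ropn1l (0.380), Spata16 (0.358), the transition protein gene Tnp1 (0.328), Tekt1 (0.328) and the linker histone gene H1fnt (0.324, and 0.301 with an LZ peak 20 bp away). Distal elements called only in LZ were found near 25.6%, 45.8%, 31.2% and 33.9% of these 4 lists in the same order, and near 24.1% of all genes. The intervals of these 4 lists for members all included the 15.3% of all genes.

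The list with the highest share was that of somatic testis cells, Sertoli, Leydig, peritubular, endothelial and macrophage genes included, of which 11 of 34 (32.4%, 19.1 to 49.2%) had a member and 6 (17.6%) an LZ-only distal element. Sox9, the Sertoli cell transcription factor gene, had members of scores 0.627 and 0.592 at 8934 and 33054 bp, and its promoter score was 0.385 in LZ, 0.652 in P and 0.564 in D. Gata4, a regulator of Sertoli and Leydig cells, had 4 with scores from 0.337 to 0.395, and its promoter was the highest-scoring of the list in LZ (0.925) and in P (0.946), with 0.482 in D. Cyp11a1, which encodes the first enzyme of steroid synthesis in Leydig cells, had 3 members of scores 0.501, 0.429 and 0.384, and a promoter peak in P alone (0.414).

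The remaining genes of this list that had a member follow. Pdgfra, a receptor of interstitial cells, had 3, with scores of 0.527, 0.433 and 0.285, and a P promoter peak of 0.265. Kdr, an endothelial receptor gene (0.395), Cldn11, the Sertoli cell tight junction gene (0.364), Adgre1, a macrophage gene (0.360), Wt1, a Sertoli cell gene (0.347), and Hsd17b3, a Leydig cell gene (0.326), had 1 each, as did Pecam1 (0.299) and Fshr (0.282), which are named to complete the list. An LZ peak lay 10 bp from the member near Adgre1, a D peak 80 bp from the one near Cldn11, and a D peak 60 bp from 1 of those near Gata4. MYB matches were present in the members of score 0.592 near Sox9, 0.527 near Pdgfra, 0.501 near Cyp11a1 and 0.282 near Fshr. Promoter peaks of the list were called for 6 of 34 genes in LZ, 13 in P and 8 in D, with median scores of 0.482, 0.564 and 0.489, and 7 genes were called in P and not in LZ while none was called in LZ and not in P. Over all genes the promoter shares were 60.7%, 61.2% and 52.3%, with 3.58% called in P and not in LZ and 3.12% in LZ and not in P. For 21 of the 34 genes, Amh, Cyp17a1, Insl3, Star, Cd68 and Ptprc among them, no list held a promoter peak. The 19 members nearest to genes of this list were 0.296% of all members, and the part of somatic cells in the pachynema-only calls was not tested.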

How the data were processed

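The data are leChRO-seq libraries of mouse spermatocytes, 4 each for leptonema/zygonema, pachynema and diplonema. The authors collapsed duplicates using the molecular identifiers (PRINSEQ lite), clipped adapters with cutadapt, mapped reads with BWA to mm10 with a ribosomal RNA unit, pooled the libraries of a substage and called peaks with dREG at default settings. Tool versions are not given in the sources used here. The labels give single-end reads, the methods paired-end. For each peak the authors deposited a dREG score, a p-value, of which the adjustment is not given in the sources used here, and a centre position. The lists hold no read counts, so the depth behind a call cannot be read from them, and scores of different lists are set side by side without a test.

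Overlapping or touching peaks were merged. Distances ran from the element's edge to 132666 TSS positions of GENCODE M21 (141767 transcripts). Windows of 100 bp on each side of the centre were read from RefSeq GRCm38.p6. Percentages have Wilson and medians order-statistic 95% intervals, which cover counting only, and neighbouring elements are not independent. No test was made, since each substage has 1 pooled list. Promoter ranks are percentiles within a list, and a promoter peak is one under 1000 bp from a TSS. Merging, distances and the motif scan were tested on simulated data. The members, gene lists and 17 motifs were chosen with earlier results of these data known. Named are the 10 highest-scoring members and the highest with each of MYB, RFX and CRE, the 3 on each side of the TSS limit, the 8 largest groups and the 8 genes with most intronic members, and up to 30 list genes ordered by score. Ties among host genes were ordered by members per length. The genes Pecam1, Fshr, Rfx2 and Tspan5 were picked after their values were seen. So were the members closest to LZ or D peaks and the ETS count in the printed windows. Tables were made with pandas 2.3.3 and numpy 2.4.6 in Python 3.11.15, intervals with scipy 1.17.1 and figures with matplotlib 3.10.9. Thresholds on score, p-value, list length, merging distance, TSS set and distance, and window were varied as alternatives.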

Additional observations from a re-analysis of the deposited data

Results flagged for a closer look

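The selection kept to autosomes, so chromosome X was outside the comparisons. There, 136 of 1001 distal elements were called only in pachynema (13.6%, 95% interval 11.6 to 15.8%), below the 17.0% of autosomal distal elements, with a median score of 0.360 and a highest score of 0.676, and it was picked out because it is a signal in data outside those comparisons. On the same chromosome 308 distal elements were called only in LZ.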

How the results depend on the processing

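Whether an element counts as pachynema-only depends on the calls left in LZ and D, and strict settings move the members. The 6423 members became 2508 when a score of at least 0.5 was required in each list, of which 992 were the same elements, and 1629 with lists of equal length, of which 834 were the same. Merging over 100 or 500 bp, a p-value of at most 0.01, the other TSS rules and dropping members within 500 bp of an LZ or D peak gave 4379 to 7116. With a score of at least 0.5, members were 12.6% of distal elements, 54.3% were intergenic, 13.6% had an LZ or D peak within 500 bp, the median GC was 50.2% and 14.6% had a MYB match. With lists of equal length these were 7.96%, 53.8%, 16.1%, 50.2% and 13.5%. With a p-value of at most 0.01, the share of distal elements was 16.4%, that with a peak within 500 bp 23.1% and that with MYB 12.5%. Merging over 100 bp gave 15.6%, 10.9% and 12.4% for these, and merging over 500 bp 14.7%, 0% (by construction) and 12.9%. With TSSs of protein-coding genes alone, the share of distal elements was 16.6%, the intergenic share 49.0% and the share with a peak within 500 bp 26.7%. A TSS distance of 5000 bp gave an intergenic share of 57.8%. Dropping members within 500 bp of an LZ or D peak gave 12.7% of distal elements and a MYB share of 12.7%. A window of 50 bp to each side held a MYB match in 6.18% of members. Of the values for number, share, intergenic position, near peaks, GC and MYB, 28 left the interval or 1.5-fold range of the main value and 23 did not. Of those for RFX, CRE, score, TSS distance, repeats, nearby promoters and grouping, 31 did and 31 did not. Among these, the share with RFX (1.79% in the 50 bp window), the share with the CRE, the share near another member, the median score and the median TSS distance moved by over 1.5 times, the last with TSSs of protein-coding genes alone (28297 bp) or a limit of 5000 bp (19604 bp), and the score to 0.589 and 0.598 with a score of at least 0.5 and lists of equal length. The cause was not tested beyond what each setting does. No paired analysis was possible because the libraries of a substage were pooled before calling, and replicates could not be left out in turn.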

Other observations

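On chromosome Y, 6 of 55 distal elements were called only in pachynema (10.9%, 95% interval 5.10 to 21.8%).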
